A study of Rattus norvegicus with 23 samples.

Results

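The cardiac thin and thick filament genes are a named list of 10: Tnnc1, Tnni3, Tnnt2 and Tpm1 of the thin filament, and Mybpc3, Myl2, Myl3, Myl4, Myl7 and Ttn of the thick filament. They were found by symbol in the gene tables the authors deposited and followed by identifier into the count files. Of the 10, 9 matched 1 identifier each among 32552, of which 15123 are paired with a symbol. No identifier is paired with the symbol Ttn, so titin has no value here and all counts of members below are out of 9.

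RNA sequencing (poly(A)-selected, strand-specific, paired-end) was done on hearts and kidneys of Sprague-Dawley rats that were 13 weeks old, with tissue taken 4 weeks after surgery. The Sham group had sham surgery. The NX group had a 5/6th partial nephrectomy, a standard rat model of chronic kidney disease, and the AVF+NX group had the same nephrectomy together with an arteriovenous fistula joining the jugular vein end-to-side to the carotid artery, so every AVF+NX rat is also a nephrectomy rat and no group had the fistula alone. Heart gave 3 Sham, 4 NX and 4 AVF+NX libraries, and kidney gave 4 of each. The labels call replicates biological and do not say which part of the heart was sampled, which kidney tissue was left to sample, the sex of the rats or which heart and kidney shared a rat, so p-values measure only the spread between these samples.

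The thin filament is a strand of actin wound with tropomyosin and studded with the troponin complex, in which troponin C binds calcium, troponin I holds actin and myosin apart at rest, and troponin T anchors the complex to tropomyosin. The thick filament is made of myosin, whose heads carry an essential and a regulatory light chain, with myosin-binding protein C along part of its length and titin as its spring and ruler. Adult ventricle uses Myl3 (essential) and Myl2 (regulatory), adult atrium uses Myl4 and Myl7 in their place, and variants of many of these genes are known causes of inherited cardiomyopathy.

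Library totals ran from 9605973 to 48079431 counts in heart and from 9069354 to 18782085 in kidney. The 3 deepest heart libraries were AVF+NX 1, 2 and 3, with 27988586 to 48079431 counts, against at most 22679092 in any other heart library. Heart libraries also differed in an index of 63 small structured RNA genes (their mean log2 CPM, centred over the heart libraries): it lay between 0.67 and 1.00 in the 3 Sham libraries and in NX 1 and 4, and between -1.02 and -0.28 in NX 2 and 3 and all 4 hearts with a fistula. With 48.3% of the variance of all genes, principal component 1 parted the heart libraries in the same way. The index therefore moves with the contrast of AVF+NX and Sham, where it cannot be told apart from the surgery, and depth was higher in 3 of the 4 AVF+NX hearts. Results that rest on these libraries are given with and without them. Kidney tubule marker genes summed to 4.11 to 6.52 CPM (the count in each 1000000 counts of a library, after scaling by the trimmed mean of M-values, TMM) in heart libraries against 14554 to 28914 CPM in kidney, and the cardiac myosin heavy chain Myh6 was at 20754 to 34158 CPM in heart against at most 1.29 CPM in kidney, so both organ labels fit the libraries.

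Promoter sequence was at hand for 8 of the 10 members in a RefSeq table of the GRCr8 build, with 300-base windows (250 bases before and 50 after the start site), Tnnt2 having 2 windows and Tnnc1 and Myl2 none. The 250 bases before the start site are shown, 5′ to 3′ in the direction of the gene, for the members that have a window and differed between AVF+NX and Sham hearts below, so that the sequence can be read beside the members that moved together (Tnni3, Mybpc3, Myl3) and the member that moved the other way (Tpm1). Capitals mark matches, on either strand, to motifs of muscle and heart transcription factors. The motif of TEAD factors (M-CAT) was searched as CATTCC. That of GATA factors was searched as AGATAA or as TGATAA, and the core promoter element as TATAAA. The MEF2 motif and the CArG box, which SRF binds, were searched by their usual definitions.
Tnni3 chr1:78342321-78342570, forward strand: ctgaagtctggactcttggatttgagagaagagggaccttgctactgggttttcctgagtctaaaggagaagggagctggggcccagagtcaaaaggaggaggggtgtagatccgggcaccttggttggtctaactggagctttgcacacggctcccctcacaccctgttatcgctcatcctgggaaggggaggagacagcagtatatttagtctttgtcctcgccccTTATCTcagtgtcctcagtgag
Mybpc3 chr3:97550811-97551060, forward strand: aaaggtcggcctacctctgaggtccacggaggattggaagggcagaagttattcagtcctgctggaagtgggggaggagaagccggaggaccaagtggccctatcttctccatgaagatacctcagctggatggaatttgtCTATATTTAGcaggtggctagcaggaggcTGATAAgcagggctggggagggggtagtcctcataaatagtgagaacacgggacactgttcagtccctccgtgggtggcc
Myl3 chr8:119616844-119617093, forward strand: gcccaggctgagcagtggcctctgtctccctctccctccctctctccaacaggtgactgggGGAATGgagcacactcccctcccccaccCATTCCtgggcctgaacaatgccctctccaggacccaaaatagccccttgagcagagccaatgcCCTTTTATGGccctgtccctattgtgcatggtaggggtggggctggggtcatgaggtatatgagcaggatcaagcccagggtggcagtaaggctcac
Tpm1 chr8:76543416-76543665, reverse strand: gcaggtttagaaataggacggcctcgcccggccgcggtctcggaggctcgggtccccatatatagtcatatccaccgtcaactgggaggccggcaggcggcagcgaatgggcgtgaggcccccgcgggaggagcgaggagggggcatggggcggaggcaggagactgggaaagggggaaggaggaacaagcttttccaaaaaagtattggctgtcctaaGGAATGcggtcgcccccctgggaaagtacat
In Tnni3 the capitals are a GATA match read on the opposite strand, 22 to 17 bases before the start site. In Mybpc3 they are a MEF2 match 109 to 100 bases before the start and a GATA match (TGATAA) 80 to 75 bases before it. Myl3 holds an M-CAT match on each strand, at 189 to 184 and 161 to 156 bases before the start, and a CArG box at 97 to 88 bases. Tpm1 holds an M-CAT match on the opposite strand, 31 to 26 bases before the start. The MEF2 and CArG matches read the same bases on both strands, and no other matches overlapped. Of the windows not printed, Tnnt2 held an M-CAT match and a GATA match (AGATAA) in 1 of its windows, Ttn a MEF2 and an M-CAT match, Myl4 a TATAAA match on the opposite strand, and Myl7 none. Among all 33469 windows of this length, 14.2% hold CATTCC, 14.2% TATAAA, 11.6% AGATAA, 9.03% TGATAA, 3.29% the MEF2 motif and 1.64% a CArG box. A match is a run of letters and not a measured binding site.

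Heart libraries held the ventricular set of filament genes at high levels and the atrial light chains near the bottom of the scale. The 9 members together took 3.28% ± 0.07 of all counts in Sham hearts (SD, n = 3), 3.18% ± 0.02 in NX hearts (n = 4) and 2.87% ± 0.10 in AVF+NX hearts (n = 4). On the scale of CPM per kilobase of exon, the order in Sham hearts was Myl3 (7192 ± 107), Tnnt2 (5914 ± 378), Tnni3 (5697 ± 464), Myl2 (5197 ± 122), Tnnc1 (2468 ± 93.7), Tpm1 (2170 ± 11.2), Mybpc3 (761 ± 96.5), Myl7 (12.5 ± 17.3) and Myl4 (3.27 ± 1.96). Neighbours in that order whose Sham ranges overlapped were Tnnt2 with Tnni3, Tnni3 with Myl2, and Myl7 with Myl4. In AVF+NX hearts the order of means changed at the top, with Tnnt2 (5471 ± 174) ahead of Myl3 (5068 ± 313) and Myl2 (4958 ± 560), and their ranges overlapped. Tpm1 (2783 ± 30.8) stood above Tnnc1 (1744 ± 37.0) in AVF+NX hearts with no overlap, the reverse of Sham. These levels rest on the annotated exon length, which runs from 480 bases for Myl2 to 4165 for Mybpc3.

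**Figure D1:**
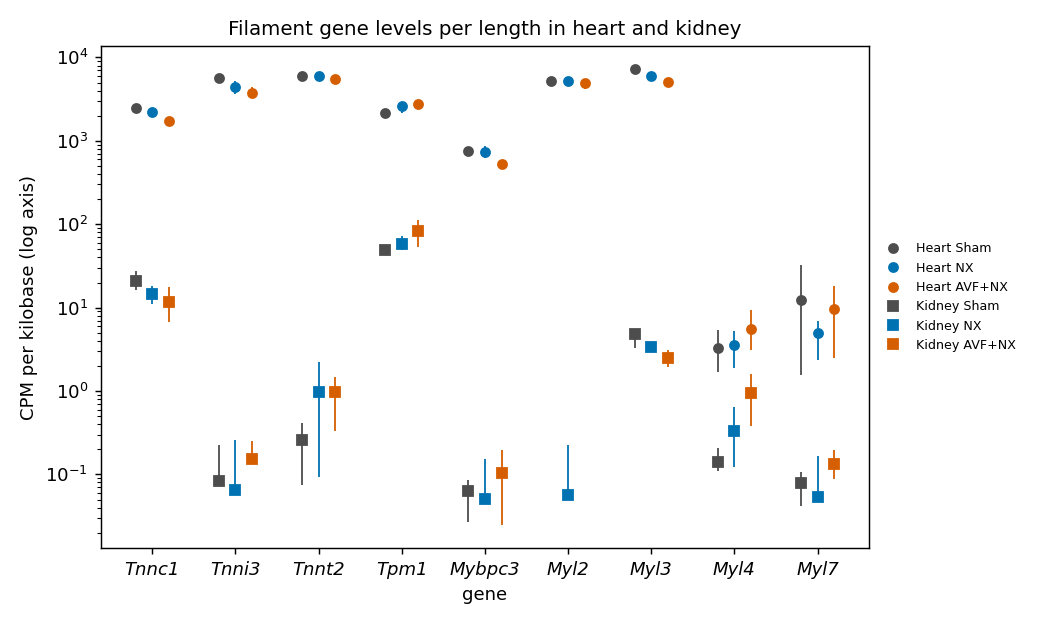
Level of the 9 measured filament genes in CPM per kilobase of exon (log axis), scaled within each organ, in heart (circles) and kidney (squares) for Sham (grey), NX (blue) and AVF+NX (orange). Points are group means and lines run from the lowest to the highest library, starting at the mean where the lowest library had no count; Myl2 is missing in the kidney groups where all libraries were at 0. The 7 ventricular and shared members lie between 533 and 7192 in heart, and Myl4 and Myl7 between 3.27 and 12.5.

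The comparison of AVF+NX with Sham hearts asks what the fistula and nephrectomy together were followed by. In the edgeR quasi-likelihood test with Benjamini-Hochberg adjustment over 12794 genes, 5 of 9 members passed an adjusted p of 0.05, against 34.1% of all genes tested: 4 were lower, against 18.6% of genes, and 1 was higher, against 15.4%. The calcium sensor Tnnc1, the inhibitory troponin Tnni3, the binding protein Mybpc3 and the ventricular essential light chain Myl3 were each lower by 0.50 to 0.59 on the log2 scale, and the tropomyosin Tpm1 was higher by 0.36. Troponin T and the regulatory light chain Myl2 did not pass. The median log2 fold change of the 9 members was -0.36, beside 0.01 over all genes tested. That median is the value of Myl7 itself (SE 0.92, edgeR adjusted p 0.783), which went to 1.94 without Sham library 1. It is therefore not a firm measure of a shift of the set.

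Among the troponins, Tnnc1 (chr16:7292096-7295465, forward strand, as in the count files, whose genome build is not given in the sources used here) was at 2089, 2067 and 1946 CPM in the Sham libraries 1 to 3, at 1920, 1747, 1667 and 2023 CPM in the NX libraries 1 to 4, and at 1405, 1418, 1453 and 1471 CPM in the AVF+NX libraries 1 to 4. All 4 AVF+NX values lay below every Sham and every NX value. The log2 fold change of AVF+NX against Sham was -0.50 (SE 0.08, edgeR adjusted p 0.0024), from 2034 ± 77.2 CPM (n = 3) to 1437 ± 30.5 CPM (n = 4).

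Tnni3 (chr1:72882806-72886488, forward strand), which keeps the filament off at low calcium and is phosphorylated under adrenergic drive, was at 4945, 4562 and 4201 CPM in Sham, at 4216, 2941, 3157 and 3678 CPM in NX, and at 2769, 2722, 3105 and 3553 CPM in AVF+NX. The AVF+NX values lay below all Sham values and overlapped those of NX. The log2 fold change against Sham was -0.59 (SE 0.13, edgeR adjusted p 0.0059). Of the 802 exon bases of Tnni3, 115 are shared on the same strand with Dnaaf3, a dynein assembly factor, which was itself at 27.5 to 33.3 CPM in Sham and 6.82 to 12.5 CPM in AVF+NX hearts.

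Tnnt2 (chr13:52662996-52680990, forward strand), the tropomyosin-binding troponin, was at 6803, 7668 and 6979 CPM in Sham, at 6826, 7303, 7659 and 7017 CPM in NX, and at 6823, 6326, 6694 and 6617 CPM in AVF+NX. The AVF+NX range touched that of Sham and lay just below that of NX. Against Sham its log2 fold change was -0.11 (SE 0.08, edgeR adjusted p 0.301), which is within the spread between libraries.

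Tpm1 (chr8:72814740-72842228, reverse strand), the main striated-muscle tropomyosin and also a smooth-muscle gene, was at 6748, 6737 and 6802 CPM in Sham, at 6745, 9231, 9015 and 7440 CPM in NX, and at 8671, 8540, 8761 and 8721 CPM in AVF+NX. The Sham libraries lay close together and the AVF+NX libraries stood apart above them, while the NX libraries spread from one to beyond the other. The log2 fold change against Sham was 0.36 (SE 0.11, edgeR adjusted p 0.0213), a 1.28-fold higher level. The count files hold 1 total per gene, so splice forms of Tpm1 and Tnnt2 were not analysed here.

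On the thick filament, Mybpc3 (chr3:79940561-79958730, forward strand), which ties myosin heads down and tunes cross-bridge cycling, was at 2705, 3409 and 3394 CPM in Sham, at 3631, 2563, 2611 and 3518 CPM in NX, and at 2316, 2268, 2031 and 2260 CPM in AVF+NX. All AVF+NX values lay below the other 7 heart libraries. The log2 fold change against Sham was -0.51 (SE 0.13, edgeR adjusted p 0.0118).

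Myl3 (chr8:119030875-119036996, forward strand), the ventricular essential light chain that stiffens the myosin lever arm, was at 6598, 6432 and 6432 CPM in Sham, at 5941, 5004, 4936 and 5990 CPM in NX, and at 4720, 4383, 4290 and 4892 CPM in AVF+NX. It was the member whose 3 heart groups did not overlap in any comparison, with Sham highest and AVF+NX lowest. The share of all genes tested that do the same was not measured. The NX libraries high on the small structured RNA index were at 5941 and 5990 CPM, and those low on it at 5004 and 4936 CPM. The NX hearts therefore held no common middle level. The log2 fold change of AVF+NX against Sham was -0.51 (SE 0.10, edgeR adjusted p 0.0031).

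Myl2 (chr12:39951987-39958239, reverse strand), the regulatory light chain phosphorylated by the cardiac myosin light chain kinase, was at 2560, 2447 and 2476 CPM in Sham, at 2504, 2603, 2265 and 2546 CPM in NX, and at 2372, 2009, 2511 and 2628 CPM in AVF+NX. The groups overlapped throughout, and the log2 fold change of AVF+NX against Sham was -0.07 (SE 0.10, edgeR adjusted p 0.614).

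**Figure D2:**
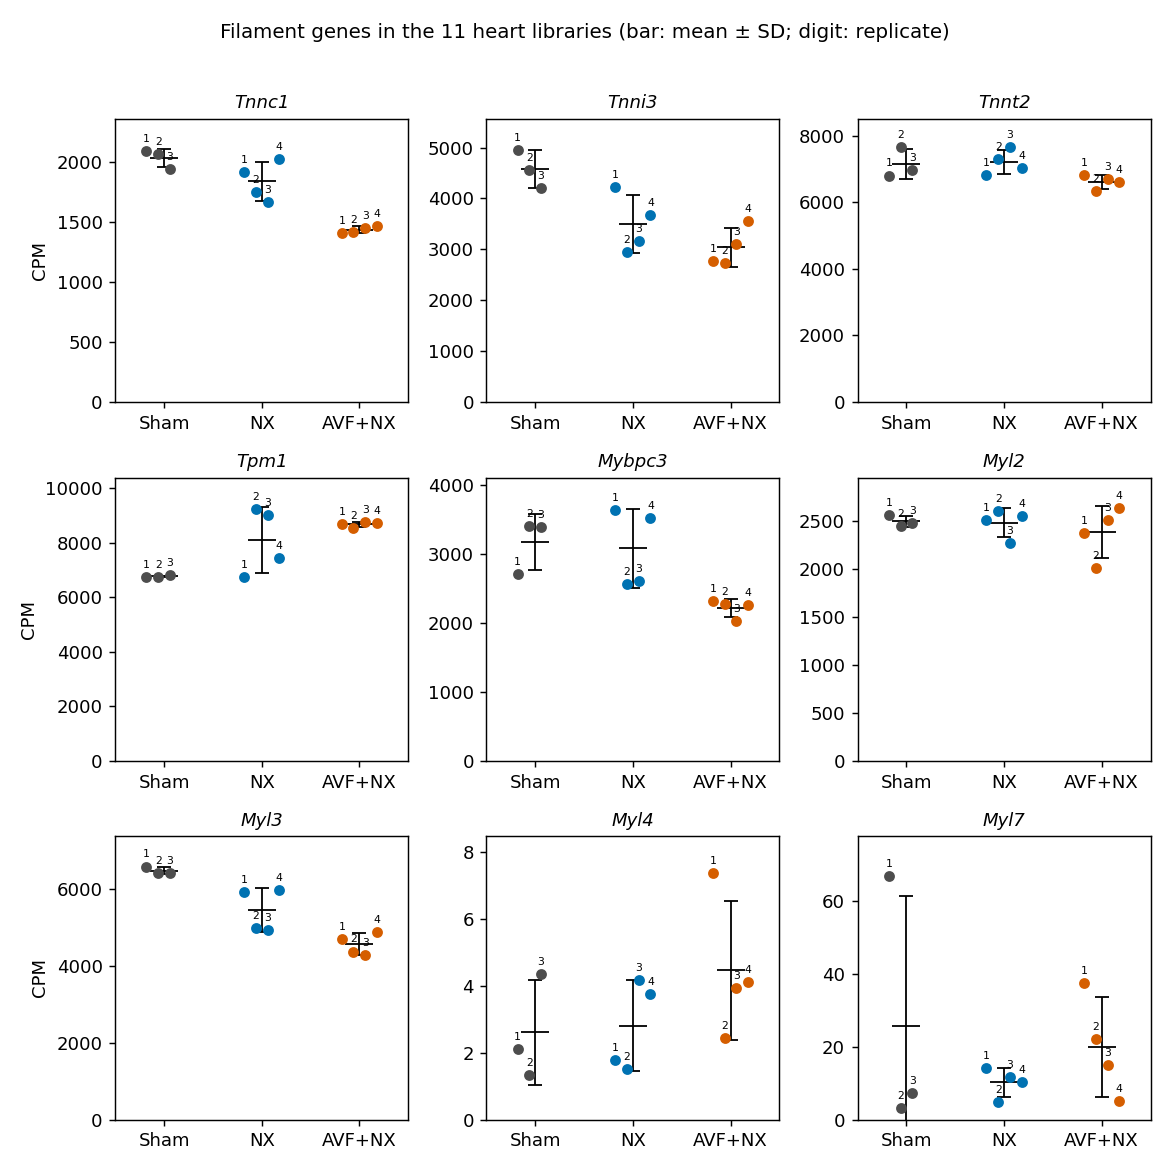
CPM of the 9 measured filament genes in each of the 11 heart libraries (points, labelled with the replicate), with group mean ± SD as bars, cut at 0. Tnnc1, Tnni3, Mybpc3 and Myl3 lie lower in the 4 AVF+NX libraries than in the 3 Sham libraries, and Tpm1 lies higher at 8540 to 8761 CPM. In each of these genes the NX libraries 2 and 3 sit nearer AVF+NX than NX 1 and 4 do.

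How far these 5 calls rest on single libraries, on depth and on the small structured RNA index was measured. Without any of the Sham libraries 1, 2 or 3 the Tpm1 call was lost (edgeR adjusted p 0.0612, 0.0630 and 0.0611), and Mybpc3 was lost without Sham 2 or Sham 3 (0.0563 and 0.0571), leaving 4, 3 and 3 members called, while Tnnc1, Tnni3 and Myl3 passed without each heart library of the comparison in turn. With the small structured RNA index as a term in the model 0 of the 5 passed, at log2 fold changes of -0.36 (Tnnc1), -0.33 (Tnni3), 0.06 (Tpm1), -0.13 (Mybpc3) and -0.30 (Myl3) and adjusted p of 0.0982 to 0.763. With log2 total count as a term 0 passed as well, at -0.41, -0.30, 0.23, -0.27 and -0.32 in the same order and adjusted p of 0.154 to 0.419. Thinning every heart library to the smallest total left all 5 calls, with Tnnc1 at -0.50 and Tpm1 at 0.36. Random thinning keeps the expected fold change of a gene, so this fit bears only on counting noise at lower depth. Because every Sham library is high and every AVF+NX library is low on the index, the surgery and the index cannot be told apart in this comparison.

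The comparison of NX with Sham hearts asks what nephrectomy alone was followed by. None of the 9 members passed in edgeR, where 0% of the genes tested did (0 of 12794, with 2662 at an unadjusted p under 0.05). Members at an unadjusted p under 0.05 were 3: Tnni3 (-0.39, SE 0.13), Tpm1 (0.26, SE 0.11) and Myl3 (-0.25, SE 0.10), with adjusted p of 0.176, 0.204 and 0.195. DESeq2 called 0 members and limma voom with quality weights called the same 3, at adjusted p of 0.0216, 0.0281 and 0.0275. Without NX library 1 edgeR called Tnni3 (-0.49, adjusted p 0.0454), in a fit that called 538 of 13029 genes. Without NX library 4 it called 34 of 13042 genes. The count of 0 over all genes therefore depends on the libraries kept and on the tool. DESeq2 called 351 genes and limma voom 2270. The other members had log2 fold changes of -0.15 (Tnnc1), 0.01 (Tnnt2), -0.04 (Mybpc3), -0.01 (Myl2), 0.09 (Myl4) and -1.38 (Myl7).

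The 4 NX hearts did not form 1 group for these genes. For Tpm1, NX 2 and 3 were at 9231 and 9015 CPM, above AVF+NX, and NX 1 and 4 at 6745 and 7440 CPM, nearer to Sham. For Tnni3, NX 2 and 3 were at 2941 and 3157 CPM, within the AVF+NX range, NX 1 was at 4216 CPM, within the Sham range, and NX 4 was at 3678 CPM, between those ranges and nearer to AVF+NX. Mybpc3 divided the NX libraries likewise, with 2563 and 2611 CPM in NX 2 and 3 and 3631 and 3518 CPM in NX 1 and 4. Tnnc1 did so too, at 1747 and 1667 CPM in NX 2 and 3 and 1920 and 2023 CPM in NX 1 and 4. For Myl3 the same pairs were at 5004 and 4936 CPM and at 5941 and 5990 CPM. Tnnt2 parted the same pairs, with 7303 and 7659 CPM in NX 2 and 3 and 6826 and 7017 CPM in NX 1 and 4, but there NX 2 and 3 lay farther from AVF+NX. Myl2 showed no such division. The same libraries are apart on the small structured RNA index. A fit of the high-index libraries is given below, and the cause of the split was not tested. Over the 11 heart libraries the Pearson correlation of log2 CPM with the index was -0.97 for Tpm1, 0.90 for Myl3, 0.86 for Mybpc3, 0.82 for Tnni3 and 0.81 for Tnnc1, and 0.17 for Myl2 and 0.15 for Tnnt2. These are descriptions over libraries that share groups and lie in separate clusters on the index. With only the libraries of high index (3 Sham, NX 1 and 4), the log2 fold change of NX against Sham was 0.08 for Tpm1, -0.20 for Tnni3 and -0.11 for Myl3, and 0 members passed.

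**Figure D3:**
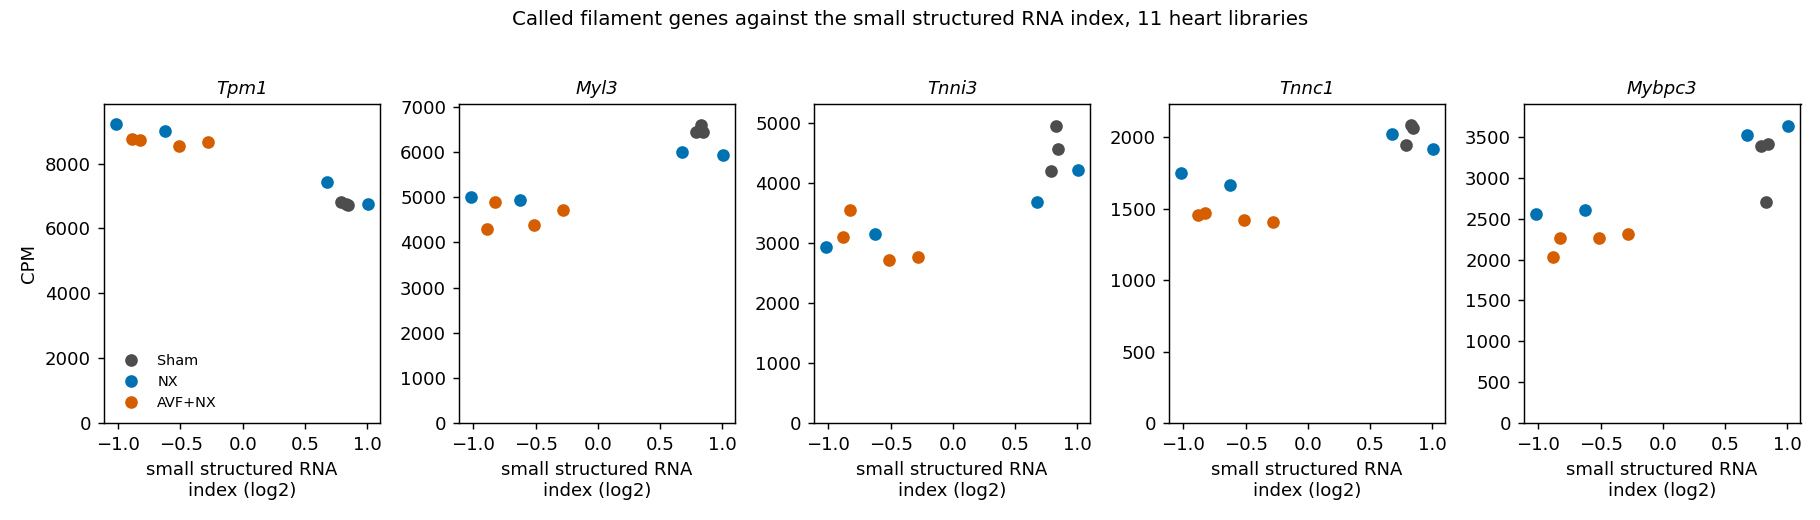
CPM of the 5 filament genes called between AVF+NX and Sham hearts (vertical axes, from 0) against the small structured RNA index of the library (horizontal axes, log2), for Sham (grey), NX (blue) and AVF+NX (orange). The 3 Sham libraries and NX 1 and 4 lie at 0.67 to 1.00 and the others at -1.02 to -0.28. In each of the 5 genes the 2 clusters of libraries do not overlap in CPM.

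The comparison of AVF+NX with NX hearts asks what the fistula added to nephrectomy was followed by. In edgeR 0 of 9 members passed, and 0.336% of genes did (43 of 12794). The smallest adjusted p were those of Tnnc1 (-0.36, SE 0.08, adjusted p 0.0625), Mybpc3 (-0.47, SE 0.13, adjusted p 0.0885) and Myl3 (-0.26, SE 0.09, adjusted p 0.137), which were the 3 members at an unadjusted p under 0.05. In DESeq2 these 3 passed at adjusted p of 0.000112, 0.0115 and 0.0354, and in limma voom with quality weights 0 passed. In the authors' deposited table Tnnc1 had a log2 fold change of -0.36 with an adjusted p of 0.0024, and in the authors' deposited table Mybpc3 had -0.48 with 0.0225. Without NX 2 edgeR called Tnnc1 and Mybpc3 (adjusted p 0.0362 and 0.0361), and without NX 3 it called them too (0.0306 and 0.0392). Those fits called 695 of 12765 and 525 of 12760 genes, against 43 with every library, and DESeq2 called 838 of 12438, so the calls of members there came with more calls over all genes. With only the libraries of low index (NX 2 and 3, 4 AVF+NX) the log2 fold changes were -0.26 for Tnnc1, -0.24 for Mybpc3, -0.14 for Myl3 and -0.09 for Tpm1, and 0 members passed. Tnnc1 in AVF+NX, at 1405 to 1471 CPM, still lay below NX 2 and 3, at 1747 and 1667 CPM.

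**Figure D4:**
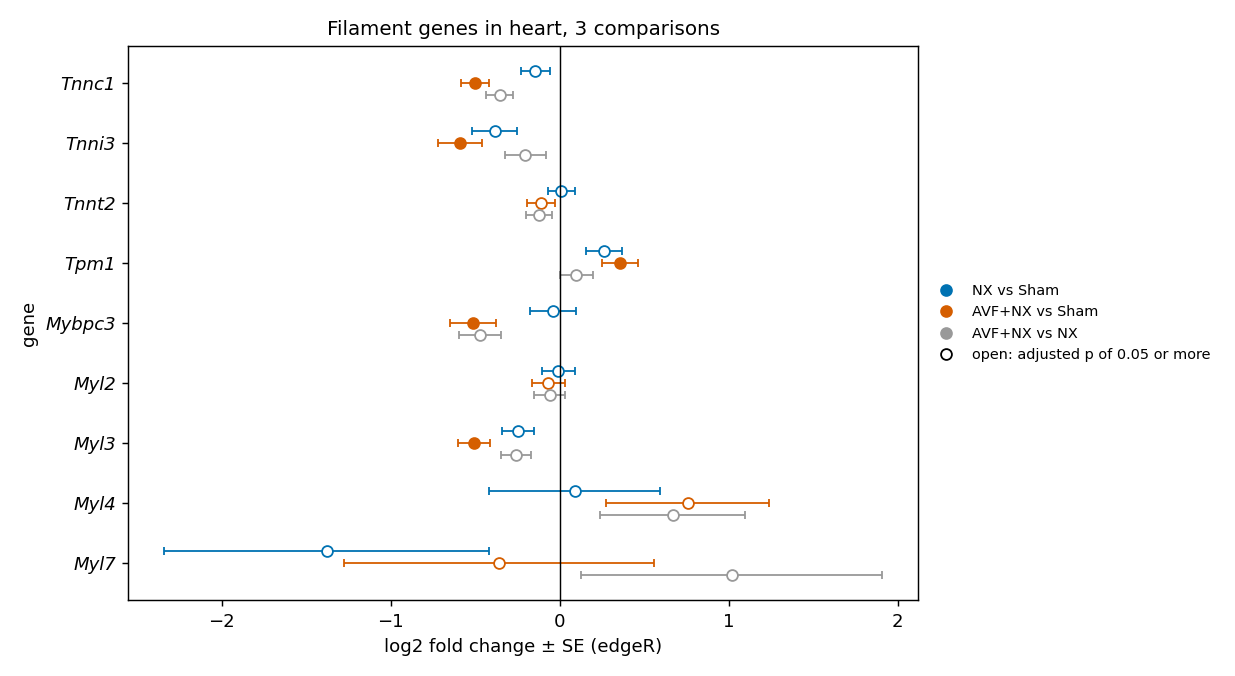
Log2 fold change (horizontal axis) ± SE of the 9 measured filament genes in 3 heart comparisons, from edgeR, with filled points where the adjusted p was below 0.05. The 5 filled points all belong to AVF+NX against Sham: 4 lie between -0.59 and -0.50 and Tpm1 lies at 0.36, while Myl4 and Myl7 have the widest errors.

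The atrial light chains were few in these libraries. Myl4 (chr10:92628356-92638100, forward strand), the atrial and fetal essential light chain, was at 2.12, 1.35 and 4.35 CPM in Sham, at 1.77, 1.51, 4.17 and 3.75 CPM in NX, and at 7.37, 2.44, 3.93 and 4.10 CPM in AVF+NX. The groups overlapped, with the AVF+NX library 1 highest, and the log2 fold change of AVF+NX against Sham was 0.76 (SE 0.48, edgeR adjusted p 0.239).

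Myl7 (chr14:86143862-86147553, reverse strand), the atrial regulatory light chain, was at 66.8, 3.21 and 7.18 CPM in Sham, at 14.3, 4.84, 11.6 and 10.3 CPM in NX, and at 37.5, 22.1, 14.9 and 5.17 CPM in AVF+NX. Sham library 1 alone held the highest value, and the direction against Sham rests on it: the log2 fold change of AVF+NX was -0.36 (SE 0.92, edgeR adjusted p 0.783) with it and 1.94 (adjusted p 0.0941) without it. For NX against Sham the value went from -1.38 with Sham 1 to 0.93 without it (adjusted p 0.567).

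Other atrial genes bear on these 2 light chains. Sarcolipin (Sln), an atrial calcium pump regulator, was at 0 to 0.92 CPM in every heart library, and was at 0.33 CPM in Sham 1. The atrial natriuretic peptide gene Nppa was at 64.1 to 102 CPM in Sham, 58.9 to 203 CPM in NX and 187 to 901 CPM in AVF+NX (log2 fold change against Sham 2.30, SE 0.68, edgeR adjusted p 0.0279), and its level in Sham 1 was 79.5 CPM. The library highest for Nppa and Sln, AVF+NX 1, was also highest for Myl4. Of 8 atrial markers tested outside the members, 2 were higher in AVF+NX hearts (Nppa and the channel gene Kcnj3 at 0.37) and 0 lower, with a median log2 fold change of 0.05. Their summed level was 417 to 443 CPM in Sham and 489 to 1187 CPM in AVF+NX, and without Nppa it was 315 to 364 CPM and 276 to 367 CPM, which overlap. Of 3 ventricular markers tested, the transcription factor gene Irx4 was lower (-0.38, adjusted p 0.0281) and Kcne1 higher (1.60, adjusted p 0.0438), with sums of 56.0 to 61.0 CPM in Sham and 46.5 to 55.4 CPM in AVF+NX. The part of the sampled region in the members' values was not tested.

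Ratios within a library do not depend on its scaling. Per length, Tnnt2 stood to Tnnc1 as 2.22, 2.53 and 2.44 in Sham, as 2.42, 2.85, 3.13 and 2.36 in NX, and as 3.31, 3.04, 3.14 and 3.07 in AVF+NX. Sham and AVF+NX did not overlap. NX 1 and 4 lay in the Sham range, NX 3 in the AVF+NX range and NX 2 between them. The same pairs of NX libraries are apart on the small structured RNA index. The mean log2 ratio was 1.26 ± 0.10 in Sham and 1.65 ± 0.055 in AVF+NX, with an exact two-sided permutation p of 0.0571, the smallest that 3 against 4 libraries allow, and an adjusted p of 0.514 over 18 tests (6 ratios, 3 comparisons). Tnni3 to Tnnc1, at 1.20 ± 0.07 and 1.11 ± 0.15 on the log2 scale, overlapped between those groups (exact permutation p 0.343). The atrial to ventricular ratios were far below 1 in every heart: log2 Myl4 to Myl3 was -11.24 ± 0.84 in Sham, -10.86 ± 0.75 in NX and -9.92 ± 0.61 in AVF+NX, and log2 Myl7 to Myl2 was -9.85 ± 2.22, -10.12 ± 0.73 and -9.32 ± 1.31. The slow skeletal and fetal troponin I, Tnni1, was at 2.40 to 7.63 CPM in heart, and its log2 ratio to Tnni3 was -10.23 ± 0.42 in Sham and -10.44 ± 0.54 in AVF+NX (exact permutation p 0.514). Of the 18 tests 0 passed after adjustment, 0 had an unadjusted p under 0.05, and a ratio of Mybpc3 to titin was not run for want of titin values.

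The other genes of the filaments are given for AVF+NX against Sham hearts, where 34.1% of all genes were called. Of 12 other thin filament genes tested, 6 were higher and 0 lower, with a median log2 fold change of 0.39: the tropomyosins Tpm3 (0.49) and Tpm4 (0.57), the pointed-end cap Tmod1 (0.34), nebulin Neb (1.08), nebulette Nebl (0.36) and skeletal actin Acta1, a gene re-expressed in stressed myocardium. Acta1 was at 307 to 622 CPM in Sham, 352 to 1139 CPM in NX and 785 to 2092 CPM in AVF+NX (log2 fold change 1.51, SE 0.46, edgeR adjusted p 0.0296). Cardiac actin, Actc1, was at 9399 to 12116 CPM in Sham and 13562 to 15675 CPM in AVF+NX without overlap, yet did not pass (0.41, SE 0.21, adjusted p 0.147), with NX from 7842 to 18066 CPM. So Tpm1 was called higher along with Tpm3 and Tpm4, while the tropomyosin Tpm2 was not called. Of its troponin partners Tnnc1 and Tnni3 were called lower and Tnnt2 was not called.

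Of 13 other thick filament and M-band genes tested, 1 was higher and 4 lower, with a median of -0.24. Among the lower ones were the cytoskeletal adaptor gene Obsl1 (-0.79), the myosin-handling methyltransferase Smyd1 (-0.44) and Mylk3 (-0.43), the cardiac kinase that phosphorylates Myl2. The higher one was the skeletal light chain Myl1 (0.95), at 0.81 to 2.58 CPM. The heavy chains Myh6 (-0.24, adjusted p 0.187) and Myh7 (-0.34, adjusted p 0.367) did not pass. Of 17 Z-disc genes 1 was higher and 5 lower, led by Synpo2l (-1.05), the junction protein gene Jph2 (-0.77), the stretch-sensing Csrp3 (-0.51) and Fhl2 (-0.40). Of 15 transcription and splicing regulators of the sarcomere 2 were higher and 6 lower, among them Nkx2-5 (-1.53, SE 0.31, adjusted p 0.0056), Gata6 (-0.56), Mef2d (-0.54) and Rbm20 (-0.48), the regulator of titin splicing. Of 11 kinases, phosphatases and chaperones of the sarcomere, Mylk3 again among them, 1 was higher and 3 lower, with Prkaca, the catalytic subunit that phosphorylates troponin I and Mybpc3, at -0.62 and the chaperone partner Bag3 at -0.52. In NX against Sham and in AVF+NX against NX hearts 0 genes of these lists passed.

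Markers of other cell types are given beside the shares of all genes tested, of which 15.4% were higher and 18.6% lower in AVF+NX hearts. In AVF+NX against Sham hearts 5 of 7 fibroblast markers tested were higher and 0 lower (summed level 1461 to 1952 CPM in Sham, 2322 to 3652 CPM in AVF+NX), as were 4 of 6 endothelial markers (583 to 715 and 801 to 999 CPM). Of 8 macrophage markers 2 were higher and 1 lower (212 to 230 and 297 to 380 CPM), of 11 smooth muscle markers 1 was higher (722 to 816 and 829 to 947 CPM), and of 5 skeletal muscle markers 2 were higher (343 to 662 and 819 to 2121 CPM, mostly Acta1). Of 17 cardiomyocyte markers outside the sarcomere 3 were higher and 5 lower, with a median of 0.10 and a summed level that overlapped between Sham (43139 to 46777 CPM) and AVF+NX (43983 to 48345 CPM). Of 3 red cell markers and 2 kidney tubule markers tested 0 passed, and of 3 podocyte markers Wt1 was higher and Synpo lower. The part of cell composition in the members' values was not tested, and in whole tissue fewer cardiomyocytes and less RNA per cardiomyocyte cannot be told apart.

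Members that were called in the same direction also tracked each other over the 11 heart libraries, which is a description over libraries that share groups. The Pearson correlation of log2 CPM was 0.94 for Tnnc1 with Myl3, 0.91 for Tnni3 with Myl3, 0.86 for Tnnc1 with Mybpc3, 0.85 for Mybpc3 with Myl3, 0.84 for Tnnc1 with Tnni3 and 0.68 for Tnni3 with Mybpc3. Tpm1 ran opposite to them, at -0.90 with Tnni3, -0.90 with Myl3, -0.81 with Tnnc1 and -0.80 with Mybpc3. Myl2 was only loosely tied to its partner light chain Myl3 (0.42), and Myl4 to Myl7 (0.30). Among genes with a symbol and a mean of at least 1 CPM, the pattern nearest to Tnnc1 was that of Efnb3 (r = 0.985), nearest to Tnni3 that of Lamtor2 (0.982), nearest to Tnnt2 that of Cops8 (0.847) and nearest to Tpm1 that of Me1 (0.990). Nearest to Mybpc3 was Otud7b (0.989), nearest to Myl2 was Rnf114 (0.851), nearest to Myl3 was the respiratory chain subunit gene Cox6a1 (0.993) and nearest to Myl7 was Camkk2 (0.897), each over 11 libraries.

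In kidney the filament genes were scarce apart from Tpm1, which smooth muscle and other cells also use. In 1 fit of all 23 libraries 33.2% of 15222 genes were higher in Sham heart than in Sham kidney, and so were 9 of 9 members in edgeR, a count that says nothing further because 5 of them entered the fit through their heart counts alone. The members had fitted folds, heart over kidney, of 71.3 for Tpm1, 191 for Tnnc1 and 2375 for Myl3. Myl2 had 1 count over the 12 kidney libraries, and the limit that 3 counts over the 4 Sham libraries set is 0.069 CPM, beside 2494 ± 58.6 CPM in Sham heart. Tnni3 had 10 counts, Myl7 22, Mybpc3 40 and Myl4 47 over the 12 libraries, and these 5 did not pass the filter on low counts. Myl4 was at 0.09 to 0.16 CPM in Sham kidneys and 0.30 to 1.26 CPM in AVF+NX kidneys. Tnnt2, at a mean of 0.888 CPM, was at 0.09 to 0.49 CPM in Sham, 0.11 to 2.69 CPM in NX and 0.40 to 1.80 CPM in AVF+NX.

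In AVF+NX against Sham kidneys, 3 of the 4 members tested passed in edgeR, against 25.1% of 14322 genes: Tpm1 was higher, against 15.9% of genes, and Tnnc1 and Myl3 were lower, against 9.18%. Tpm1 was at 155, 169, 149 and 136 CPM in Sham, at 197, 222, 152 and 160 CPM in NX, and at 353, 246, 168 and 276 CPM in AVF+NX. The AVF+NX library 3 lay within the Sham range and the other 3 above it, and the log2 fold change was 0.78 (SE 0.19, edgeR adjusted p 0.0106). Myl3 was at 4.90, 4.93, 4.72 and 2.97 CPM in Sham, at 2.78, 2.90, 3.50 and 2.87 CPM in NX, and at 1.89, 2.59, 2.83 and 1.73 CPM in AVF+NX. Its AVF+NX and Sham values did not overlap, and the log2 fold change was -0.95 (SE 0.23, edgeR adjusted p 0.0099). Tnnc1, which slow skeletal muscle shares with heart, was at 13.7, 18.2, 22.8 and 13.3 CPM in Sham, at 10.002, 9.03, 14.9 and 13.9 CPM in NX, and at 5.48, 10.3, 14.7 and 8.15 CPM in AVF+NX. Sham and AVF+NX overlapped through AVF+NX library 3, and the log2 fold change was -0.82 (SE 0.28, edgeR adjusted p 0.0484). Tnnt2 did not pass (1.85, SE 0.84, edgeR adjusted p 0.126). It entered the fit with 1 to 6 counts in each Sham kidney and at most 25 in any NX or AVF+NX kidney. Its fold change therefore rests on few Sham counts.

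The Tnnc1 call in kidney was at the threshold. It was lost without AVF+NX 1, 2 or 4 and without Sham 2, 3 or 4 (adjusted p of 0.0524 to 0.144), with no count filter (0.0664), with only the compared groups in the fit (0.0624) and with total count (0.0872) or the small structured RNA index (0.0951) as a term, while Tpm1 and Myl3 passed without each library in turn. Of all genes tested, 15.9% were higher and 9.18% lower in AVF+NX than in Sham kidneys. Among 11 smooth muscle markers 6 were higher and 0 lower (Tagln at 1.45, Acta2 at 1.31, Tpm2 at 1.36). Their summed level was 721 to 917 CPM in Sham and 760, the value in AVF+NX library 3, to 1395 CPM in AVF+NX. In the same comparison 5 of 7 fibroblast and 8 of 8 macrophage markers were higher. Of 12 kidney tubule markers 8 were lower and 0 higher (25982 to 28914 CPM in Sham, 14554 to 20748 CPM in AVF+NX). The sarcomeric genes Actc1 (at most 0.43 CPM) and Myh6 (at most 1.29 CPM) were near 0 in every kidney library. The part of these cell types in the values of Tpm1, Tnnc1 and Myl3 was not tested.

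In NX against Sham kidneys 0 of 4 members passed in edgeR (1.31% of genes did), with 1 at an unadjusted p under 0.05, Myl3 (-0.54, SE 0.22, adjusted p 0.240), and DESeq2 and limma voom called 0. In AVF+NX against NX kidneys 0 of 4 passed in edgeR (6.07% of genes did), with 1 at an unadjusted p under 0.05, Tpm1 (0.51, SE 0.19, adjusted p 0.129), and DESeq2 and limma voom called 0. Without AVF+NX 3 Tpm1 passed in that comparison (0.70, adjusted p 0.0155), in a fit that called 1585 genes against 870 with every library.

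**Figure D5:**
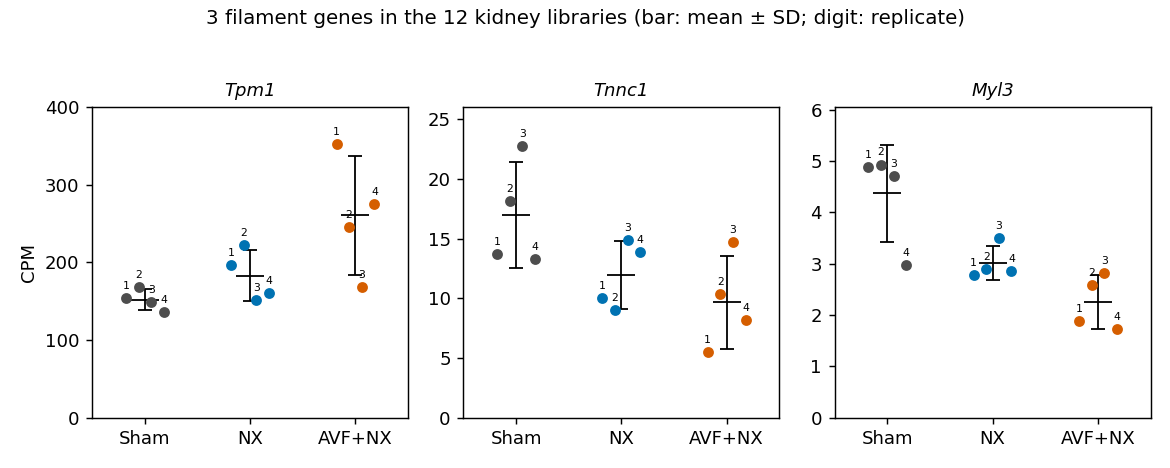
CPM of Tpm1, Tnnc1 and Myl3 in each of the 12 kidney libraries (points, labelled with the replicate), with group mean ± SD as bars. Tpm1 is highest in AVF+NX libraries 1, 2 and 4 at 246 to 353 CPM, and Tnnc1 and Myl3 lie lower in AVF+NX than in Sham apart from the overlap of Tnnc1 in AVF+NX library 3.

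Whether heart and kidney differed in their response was tested in 1 fit of all 23 libraries, where a positive difference means a higher log2 fold change in heart than in kidney. The 5 members with few kidney counts had no usable kidney response, which leaves 4. Of these 4, Tnnt2 had only 1 to 6 counts in each Sham kidney. Its organ differences below rest on those few counts and are given as values only. For AVF+NX against Sham 0 of these 4 passed in edgeR, against 27.9% of genes, with 2 at an unadjusted p under 0.05: Tnnt2 (-1.87, SE 0.72, adjusted p 0.0555) and Myl3 (0.54, SE 0.22, adjusted p 0.0681). DESeq2 called Myl3 (0.59, adjusted p 0.0284) and limma voom called Tnnt2 (-1.98, adjusted p 0.0232). Without kidney AVF+NX 3 both passed (0.0247 for Tnnt2 and 0.0308 for Myl3), and without kidney Sham 4 Myl3 passed (0.0151). The difference for Tpm1 was -0.33 (SE 0.25, adjusted p 0.347) and for Tnnc1 0.41 (SE 0.29, adjusted p 0.318), so a difference between the organs was not shown for those 2, and for Myl3 it depended on the tool and the libraries. For NX against Sham 0 of the 4 passed in edgeR (0.158% of genes did), with Tnnt2 (-1.61, SE 0.73) at an unadjusted p under 0.05. For AVF+NX against NX 0 of the 4 passed (1.12% of genes did), with 0 at an unadjusted p under 0.05. DESeq2 and limma voom called 0 in both.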

How the data were processed

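RNA from snap-frozen hearts and kidneys was poly(A)-selected and made into strand-specific paired-end libraries, per the labels' protocols. The authors deposited whole-number read counts per gene for each of 23 libraries, with gene position and exon length, per the file headers. The submitters' processing notes list STAR 2.5.2b, Subread 1.5.2 with featureCounts, and Trimmomatic 0.36. For the genome build, annotation release and strand setting, the sources used here give nothing. The authors also deposited tables with log2 fold changes and adjusted p-values for 6 comparisons, per the file headers; their 46 columns of per-library values were not used.

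From the counts, 1 model per organ, holding all 3 surgery groups, was run with edgeR 4.0.16 (under R 4.3.3; filterByExpr, TMM, robust quasi-likelihood F test, Benjamini-Hochberg over all genes tested, call at adjusted p below 0.05). The SE is the log2 fold change over the square root of F. CPM is the count in each 1000000 of the TMM-scaled library total, computed within each organ. Log2 CPM used a prior count of 2, and 0.5 was added to counts in ratios. DESeq2 1.42.0 and limma 3.58.1 (voom) were alternatives, and the fits were tested on simulated data. The most alike pair of replicates still differed beyond counting error (chi-square over its degrees of freedom 6.15), so none was merged.

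All members are named in heart; in kidney those with a mean of at least 1 CPM have fold changes, and Tnnt2, below that mean, is an exception made after its values were seen. Of the 3 genes most like each member the nearest is given. Of other gene lists, counts and up to 4 genes with the smallest p in AVF+NX against Sham hearts are given, with, besides, Nppa, Sln, Mybphl (no identifier has that symbol), Tnni1, Myh6, Myh7, Actc1 and Acta1; further genes named were chosen after their values were seen. The members and lists were chosen with earlier results of these data known. Thinning and the fits by index were added after seeing the data. The gene nearest in pattern to Myl4 and 1 gene of the thick filament and M-band list are not reported here.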

Additional observations from a re-analysis of the deposited data

Results flagged for a closer look

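Of 30 combinations of a member and a group of 4 libraries, 2 had a library far from the others by Dixon's gap ratio, which chance does in about 1 group in 20. In Sham kidneys Myl3 was at 2.97 CPM in library 4, with the other 3 at 4.72 to 4.93 CPM, from 33 counts against 44 to 60. In NX kidneys Myl3 was at 3.50 CPM in library 3, with the others at 2.78 to 2.90 CPM. The Myl3 call between AVF+NX and Sham kidneys held without each library in turn, at log2 fold changes of -1.10 to -0.85.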

How the results depend on the processing

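Heart groups of 3 or 4 libraries, higher depth in 3 of 4 AVF+NX hearts and the small structured RNA index limit these results, and low counts limit Myl4 and Myl7 in heart and all members but Tpm1 in kidney. The count of members called moved as follows. AVF+NX against Sham hearts (5): 0 with log2 total count and 0 with the index as a term, 3 to 5 without 1 library; the genes called there (4357) numbered 2 and 58 under those terms and 2724 to 4236 without 1 library. NX against Sham hearts (0): 3 with limma voom, 0 to 1 without 1 library. Genes called there (0) numbered 351 in DESeq2, 2270 in limma voom, 61 with the replicate block, 538 without NX 1 and 34 without NX 4. AVF+NX against NX hearts (0): 3 with DESeq2, 0 to 2 without 1 library; genes called (43) numbered 838 in DESeq2 and 0 to 695 without 1 library. AVF+NX against NX kidneys (0): 0 to 1 without 1 library. Organ difference in AVF+NX against Sham (0): 1 with DESeq2, 1 with limma voom, 1 with the replicate block, 0 to 2 without 1 library. Same-numbered heart libraries correlated in their deviations from the group means at -0.12 to 0.12, and those of different number at -0.21 to 0.22. These values gave no sign of pairing by number in heart, but groups of 3 or 4 libraries cannot exclude it. In kidney, same-numbered libraries correlated at -0.075 to 0.38 and libraries of different number at -0.35 to 0.18. Whether the numbers pair the samples of either organ was therefore not settled. With the replicate block 669 genes were called in NX against Sham kidneys (187 without it) and 1647 in AVF+NX against NX kidneys (870 without it). The replicate block left 5 members called in AVF+NX against Sham hearts and 3 in kidney.

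Reversed signs occurred only in values that did not pass, and their cause was not tested. In NX against Sham hearts Tnnt2 went to -0.035 with the index as a term and -0.037 in high-index libraries alone, Mybpc3 to 0.012 with total count, 0.16 with the index and 0.18 in high-index libraries, and Myl2 to 0.0015 (RLE size factors), 0.010 (no filter), 0.0057 (DESeq2), 0.0092 (no mitochondrial genes), 0.023 (total count), 0.0068 (only the groups compared) and 0.027 (high-index libraries). In AVF+NX against Sham hearts Myl2 went to 0.048 with total count, and Myl7 to 0.87 (limma voom), 0.44 (replicate block) and 0.64 (index). In AVF+NX against NX hearts total count gave 0.017 for Tnni3 and 0.025 for Myl2, and Tpm1 went to -0.021 with the index and -0.089 in low-index libraries. Without 1 library the ranges that crossed 0 were, for NX against Sham, -0.023 to 0.083 (Tnnt2), -0.14 to 0.037 (Mybpc3), -0.033 to 0.032 (Myl2), -0.21 to 0.69 (Myl4) and -1.87 to 0.93 (Myl7), for AVF+NX against Sham -0.11 to 0.0063 (Myl2) and -0.86 to 1.94 (Myl7), and for AVF+NX against NX -0.12 to 0.015 (Myl2).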
